A study of Mus musculus with 10 samples.

Results

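The receptor TREM2, the adaptors it signals through and the kinases and effectors that act below it were followed in hippocampal RNA of female tauopathy mice with or without an androgen implant. The 9 genes were listed by name for their roles in the pathway, by a rule that uses no measured value, although earlier results of these data were known when the list was made: the receptor Trem2, the adaptors Tyrobp and Hcst, the kinases Lyn, Syk and Btk, the effectors Plcg2 and Vav1, and the lipid phosphatase Inpp5d. All 9 were found among the 56884 genes of the count table. Each of the 10 mice was an ovary-intact hTau+ PS19 (P301S) female, in which the mouse Prnp promoter drives human Tau carrying the P301S mutation, so both groups carried the transgene. Under the skin, 5 mice received SILASTIC tubing with 10 mm of the androgen dihydrotestosterone (DHT), which cannot be converted to estrogen, and 5 received an empty tube (void). Treatment began at about 6 months of age and lasted 12 weeks, with implants renewed at intervals, and hippocampi were taken at 9 to 9.5 months, with 1 mRNA library per mouse. The comparison asks how the RNA of this pathway differed between DHT-treated and void-treated females.

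TREM2 is a lipid and lipoprotein receptor that in the brain is made mainly by microglia, the resident macrophages. It has no signaling tail of its own and pairs, through charged residues in the membrane, with DAP12 (Tyrobp), whose cytoplasmic ITAM motif recruits Syk once Src family kinases such as Lyn have phosphorylated it, and with DAP10 (Hcst), which recruits PI3 kinase. Syk and Btk then activate phospholipase C gamma 2 (Plcg2) and the Rac exchange factor Vav1, while SHIP1 (Inpp5d) removes the lipid that PI3 kinase makes.

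Total counts per mouse ranged from 27188854 to 47113661 with void and from 33523527 to 45947784 with DHT, and 17622 genes had enough counts to be tested. All void libraries came before all DHT libraries in the numbering of the labels, and the effects of this order and of treatment cannot be told apart. Summed levels of 12 choroid plexus genes, in CPM (counts scaled to a common library size), ranged from 118 to 1897 with void and from 2154 to 3045 with DHT, without overlap. Genes of hippocampal neurons summed to between 6891 and 7759 CPM with void and between 6377 and 7587 with DHT. In bulk tissue, more cells of a type and more RNA per cell cannot be told apart.

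With DHT, 6 of the 9 genes were higher: Trem2, Tyrobp, Lyn, Btk, Vav1 and Inpp5d, although Lyn, Vav1 and Inpp5d turned to slightly negative values when the counts were scaled on a list of 7 pan-microglia genes. These 6 passed a Benjamini-Hochberg adjusted p of 0.05 in edgeR's quasi-likelihood test, against 5.22% of all genes tested. Both Trem2 and Tyrobp also passed a log2 fold change of 1, as did 2.17% of all genes. No member was lower in edgeR or DESeq2, at an adjusted or unadjusted p of 0.05 (0 of 8 tested by edgeR), while 0.261% of all genes were lower at the adjusted threshold. Syk and Plcg2 were tested and did not pass, and Hcst had too few counts to be tested. In 5 genes (Trem2, Tyrobp, Lyn, Btk and Inpp5d) every DHT mouse lay above every void mouse, which held for 5.39% of all genes. The median log2 fold change of the 8 tested members was 0.69, and that of all genes was 0.01.

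The promoters of the members that passed and have a match to the searched motifs ahead of the start site follow here. They are the 250 bases before the annotated start in RefSeq on GRCm38.p6, all on the plus strand, for Trem2 at chr17:48346151-48346400, Vav1 at chr17:57278850-57279099 and Inpp5d at chr1:87620062-87620311. Capitals mark matches to a motif, each described in the next paragraph.
Trem2 promoter: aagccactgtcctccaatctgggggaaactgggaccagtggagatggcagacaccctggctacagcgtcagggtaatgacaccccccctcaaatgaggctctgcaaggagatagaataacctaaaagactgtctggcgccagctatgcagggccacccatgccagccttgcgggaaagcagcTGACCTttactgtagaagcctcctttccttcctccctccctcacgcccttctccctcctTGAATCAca
Vav1 promoter: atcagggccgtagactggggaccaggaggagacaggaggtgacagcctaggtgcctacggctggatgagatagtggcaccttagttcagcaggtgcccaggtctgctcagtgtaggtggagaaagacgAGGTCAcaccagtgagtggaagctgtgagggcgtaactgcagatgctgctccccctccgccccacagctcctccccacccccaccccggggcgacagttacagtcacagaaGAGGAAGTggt
Inpp5d promoter: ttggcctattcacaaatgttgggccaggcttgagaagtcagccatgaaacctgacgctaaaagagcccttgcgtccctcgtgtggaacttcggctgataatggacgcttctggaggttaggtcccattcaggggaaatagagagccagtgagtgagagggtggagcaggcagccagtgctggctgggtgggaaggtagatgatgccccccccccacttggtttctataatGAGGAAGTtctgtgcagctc

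The promoter table held 7 of the 9 members with 8 promoters, and Tyrobp and Lyn had no entry and were not searched. In these promoters 6 motifs were searched on both strands over 250 bases before and 50 bases after the start. The nuclear receptor hexamer AGGTCA lay on the opposite strand of Trem2, read as TGACCT, 68 bases before the start, and on the gene's own strand of Vav1, 122 bases before it. It is in 16.3% of all 32851 promoters of the same length. The ETS site GAGGAAGT, of the kind bound by the myeloid factor PU.1, lay 11 bases before the start of Vav1 and 20 bases before that of Inpp5d, and is in 3.2% of all promoters. The AP-1 type pattern TGANTCA, which allows any base in the middle, matched as TGAATCA 9 bases before the start of Trem2. This looser pattern is in 7.81% of all promoters, and the match is not shown to be an AP-1 site. An E-box, CACGTG, lay 20 bases before the start of Plcg2 (7.15% of all promoters). Of the 7 members searched, 0 held the direct repeat AGGTCANAGGTCA (0.0396% of all promoters) or the full androgen response element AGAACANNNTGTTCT (0.00913%) in this window. The direct repeat holds the hexamer within it, and no matches overlapped in these promoters.

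Trem2 (ENSMUSG00000023992), the receptor, stood at 6.96, 8.79, 8.72, 10.3 and 6.47 CPM in void replicates 4, 5, 9, 10 and 11. In DHT replicates 1, 2, 3, 5 and 6 it stood at 25.7, 12.1, 18.4, 26.2 and 20.2 CPM. The lowest DHT mouse, replicate 2, was above the highest void mouse, replicate 10. Void mice averaged 8.24 ± 1.53 CPM (SD, n = 5) and DHT mice 20.5 ± 5.79 CPM (SD, n = 5), from 216 to 329 and from 491 to 941 counts per mouse. The log2 fold change was 1.32 with a 95% interval from 0.88 to 1.76 (Benjamini-Hochberg adjusted p = 0.00761, edgeR's quasi-likelihood test). When any 1 of the 10 mice was omitted, it stayed between 1.18 and 1.46 and passed in 10 of 10 fits.

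Tyrobp (ENSMUSG00000030579), which encodes DAP12, followed the receptor closely. It was at 6.38, 7.77, 9.55, 10.5 and 7.76 CPM in void replicates 4, 5, 9, 10 and 11, and at 27.0, 13.2, 19.3, 24.3 and 20.1 CPM in DHT replicates 1, 2, 3, 5 and 6. The groups did not overlap, and the highest void and lowest DHT mouse were the same animals as for Trem2. Its log2 fold change was 1.31 (SE 0.19, adjusted p = 0.00670, edgeR's quasi-likelihood test), and 10 of 10 fits with a mouse left out passed, between 1.16 and 1.44.

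Hcst (ENSMUSG00000064109), which encodes DAP10, was close to the limit of detection. It had 7, 4, 4, 3 and 1 counts in void replicates 4, 5, 9, 10 and 11, and 7, 1, 6, 7 and 9 counts in DHT replicates 1, 2, 3, 5 and 6. The groups overlapped over most of their range, and the sums were 19 counts with void and 30 with DHT. Fitted without the filter on low counts, the log2 fold change was 0.51 (SE 0.52, adjusted p = 0.690, edgeR's quasi-likelihood test), so a difference was not detectable at this depth. Tyrobp and Hcst lie 126 bases apart on opposite strands in the GENCODE annotation, and how the authors treated strand is not given in the sources used here.

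Among the kinases, Lyn (ENSMUSG00000042228), the Src family kinase that phosphorylates ITAMs, was at 10.8, 11.8, 9.46, 12.0 and 10.1 CPM in void replicates 4, 5, 9, 10 and 11. In DHT replicates 1, 2, 3, 5 and 6 it was at 20.5, 13.2, 17.8, 15.5 and 15.0 CPM. Every DHT mouse was above every void mouse, with a smaller gap than for Trem2. Its log2 fold change was 0.60 (SE 0.12, adjusted p = 0.0148, edgeR's quasi-likelihood test). Without void replicate 11 it was 0.55 (adjusted p = 0.0627) and without DHT replicate 3 it was 0.55 (adjusted p = 0.0504), and the other 8 fits passed. Lyn overlaps 4 small or noncoding genes on the opposite strand. Btk overlaps a processed pseudogene and Plcg2 a microRNA gene, also on the opposite strand. Without strand, reads from these cannot be told apart from those of Lyn, Btk and Plcg2.

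Syk (ENSMUSG00000021457), the kinase that docks on the phosphorylated ITAM, was at 4.04, 5.59, 4.84, 5.50 and 4.22 CPM in void replicates 4, 5, 9, 10 and 11. With DHT it was at 8.01, 4.64, 7.25, 6.85 and 5.90 CPM in replicates 1, 2, 3, 5 and 6. DHT replicate 2 lay below 3 of the void mice, and the other 4 DHT mice lay above all of them. The log2 fold change was 0.44 with a 95% interval from 0.10 to 0.78, and it did not pass (adjusted p = 0.1497, edgeR's quasi-likelihood test; unadjusted p = 0.0163). Without DHT replicate 2 it was 0.54 (adjusted p = 0.0417).

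Btk (ENSMUSG00000031264), a Tec family kinase that acts on Plcg2, was at 1.48, 1.34, 1.05, 1.96 and 1.498 CPM in void replicates 4, 5, 9, 10 and 11. In DHT replicates 1, 2, 3, 5 and 6 it was at 4.15, 2.27, 3.14, 2.27 and 2.17 CPM. The groups did not overlap, but 3 of the DHT mice lay close above the highest void mouse. Its log2 fold change was 0.94 (SE 0.22, adjusted p = 0.0289, edgeR's quasi-likelihood test), the largest of the members other than Trem2 and Tyrobp. The call did not hold in 5 of 10 fits: without void replicate 4, 5 or 11, or DHT replicate 1 or 3, the adjusted p was 0.0709, 0.0625, 0.0866, 0.0877 or 0.0806, with log2 fold changes of 0.94, 0.91, 0.92, 0.72 and 0.87.

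Of the effectors, Plcg2 (ENSMUSG00000034330), which cleaves a membrane lipid to release calcium and activate protein kinase C, was at 7.44, 5.98, 7.54, 8.23 and 7.31 CPM in void replicates 4, 5, 9, 10 and 11. In DHT replicates 1, 2, 3, 5 and 6 it was at 11.2, 7.92, 9.97, 9.34 and 10.1 CPM. A single pair overlapped, DHT replicate 2 and void replicate 10. The log2 fold change was 0.41 (SE 0.11) and did not pass (adjusted p = 0.0567, edgeR's quasi-likelihood test), and DESeq2 gave 0.38 with an adjusted p of 0.0219, in a fit where 3.46% of all genes were higher. Without DHT replicate 2 it was 0.48 (adjusted p = 0.0256).

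Vav1 (ENSMUSG00000034116), which loads Rac with GTP and so links the receptor to the cytoskeleton, was at 4.19, 4.38, 4.56, 6.12 and 3.98 CPM in void replicates 4, 5, 9, 10 and 11. In DHT replicates 1, 2, 3, 5 and 6 it was at 10.7, 5.70, 8.48, 7.87 and 7.06 CPM. Void replicate 10 stood well above the other void mice and was the only one to reach above DHT replicate 2. The log2 fold change was 0.78 (SE 0.17, adjusted p = 0.0222, edgeR's quasi-likelihood test). It did not pass without void replicate 4, 5 or 11 or DHT replicate 1 or 3 (adjusted p = 0.0653, 0.0506, 0.0822, 0.0641 and 0.0611), with log2 fold changes of 0.75, 0.76, 0.70, 0.62 and 0.74.

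Inpp5d (ENSMUSG00000026288), the phosphatase that opposes PI3 kinase, was the most even member among void mice, at 14.8, 16.2, 14.9, 16.2 and 15.1 CPM in replicates 4, 5, 9, 10 and 11. With DHT it was at 30.4, 18.7, 21.1, 21.7 and 24.3 CPM in replicates 1, 2, 3, 5 and 6. Every DHT mouse was above every void mouse, and the spread was 4.70% of the mean with void and 19.2% with DHT. The log2 fold change was 0.59 (SE 0.11, adjusted p = 0.0130, edgeR's quasi-likelihood test), and it did not pass without void replicate 11 (0.56, adjusted p = 0.0536).

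**Figure D1:**
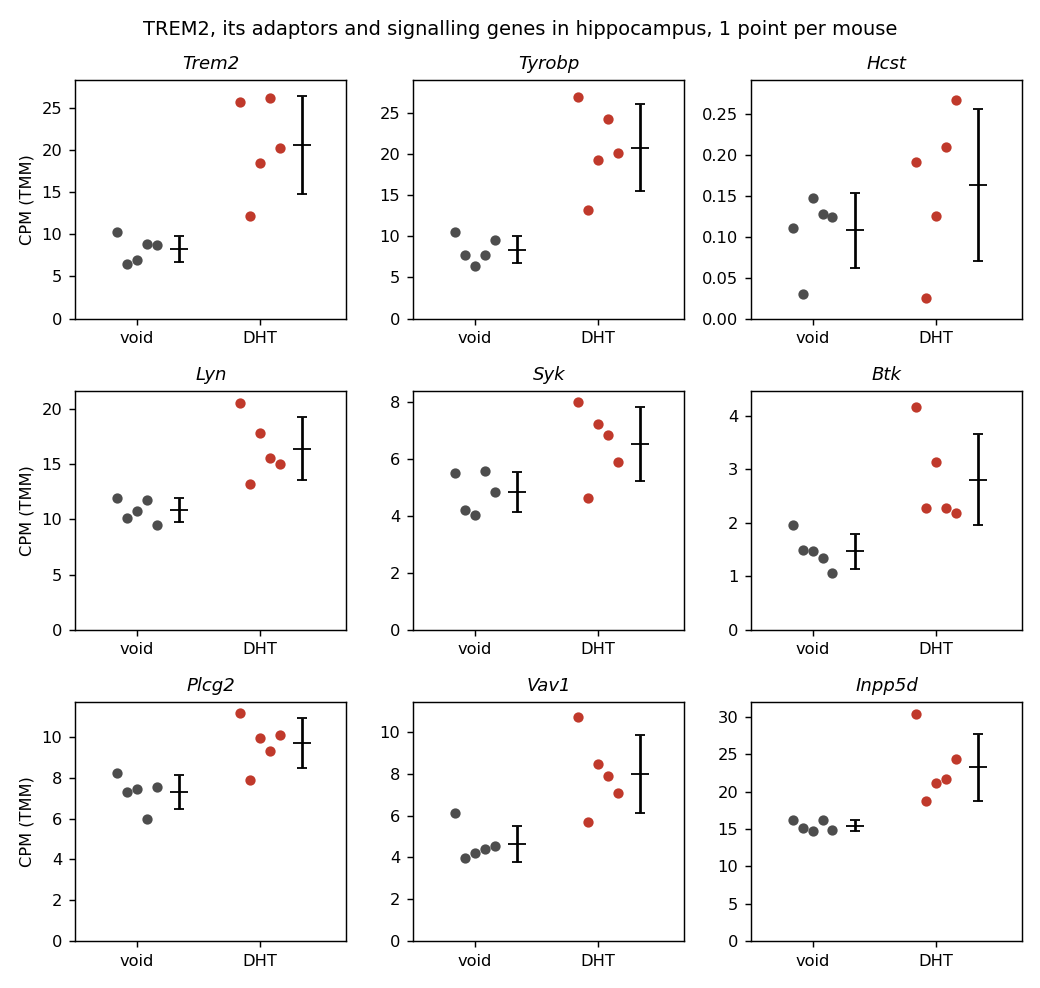
Level of each of the 9 genes in every mouse, in CPM after TMM normalization on linear axes that start at 0; points are mice (gray void, red DHT, in the order of replicates 10, 11, 4, 5, 9 and 1, 2, 3, 5, 6), and the bar beside each group is the mean ± SD (n = 5). The groups are apart for Trem2, Tyrobp, Lyn, Btk and Inpp5d, while DHT replicate 2 reaches into the void range for Syk, Plcg2 and Vav1, and the Hcst groups overlap at 1 to 9 counts.

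The same mice stood high or low in most members, as the plot of levels by mouse shows. Among the DHT mice, replicate 2 was the lowest in 7 of the 8 tested genes and replicate 1 the highest in 7. Among the void mice, replicate 10 was the highest in 7. Without DHT replicate 2, all 8 tested genes passed, when 5.76% of all genes were higher, and all 8 had groups that did not overlap. Without void replicate 11, only Trem2 and Tyrobp passed, when 1.97% of all genes were higher. Left out one at a time, the mice gave between 2 and 8 members that passed, while between 1.97% and 5.98% of all genes were higher.

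Compared per length, the adaptor Tyrobp was the most abundant member. Its level was 14.9 CPM per kilobase of its principal transcript with void and 36.8 with DHT, and Trem2 came next at 7.57 and 18.9. Lyn (3.19 with void, 4.84 with DHT) and Inpp5d (3.12 and 4.71) did not differ from each other beyond their spread, and neither did Plcg2 (1.698 and 2.26) and Vav1 (1.57 and 2.69). Syk (0.902 and 1.22), Btk (0.577 and 1.10) and Hcst (0.245 and 0.371) were the lowest. The place of Trem2 depends on the length used: divided by all of its annotated exon bases it was at 1.67 CPM per kilobase with void, below Lyn at 2.66 and Inpp5d at 2.03, and at 4.15 with DHT, beside Lyn at 4.03 and Inpp5d at 3.06.

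Markers of microglia were themselves higher in the DHT mice. The summed level of 10 homeostatic microglia genes ranged from 383 to 436 CPM with void and from 521 to 754 with DHT, and that of 7 pan-microglia genes from 155 to 194 and from 216 to 322. Scaled on the homeostatic list, the log2 fold changes were 0.89 for Trem2 (adjusted p = 0.00562), 0.88 for Tyrobp (adjusted p = 0.00562) and 0.50 for Btk (adjusted p = 0.0343) in edgeR's quasi-likelihood test, and the other 5 tested members did not pass, while 3.22% of all genes were higher and 56.2% lower. Scaled on the pan-microglia list, Trem2 (0.52, adjusted p = 0.00891) and Tyrobp (0.51, adjusted p = 0.00918) passed, while 1.71% of all genes were higher. The median of all genes moved to -0.40 under the first scaling and to -0.75 under the second. Btk stood at 0.13, Vav1 at -0.02, Lyn at -0.19, Inpp5d at -0.20, Syk at -0.36 and Plcg2 at -0.37 under the second, all above that median and none past the threshold. Trem2 and Tyrobp alone kept groups that did not overlap under both scalings, with every DHT mouse above every void mouse in 0.993% of all genes under the first and 0.272% under the second.

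**Figure D2:**
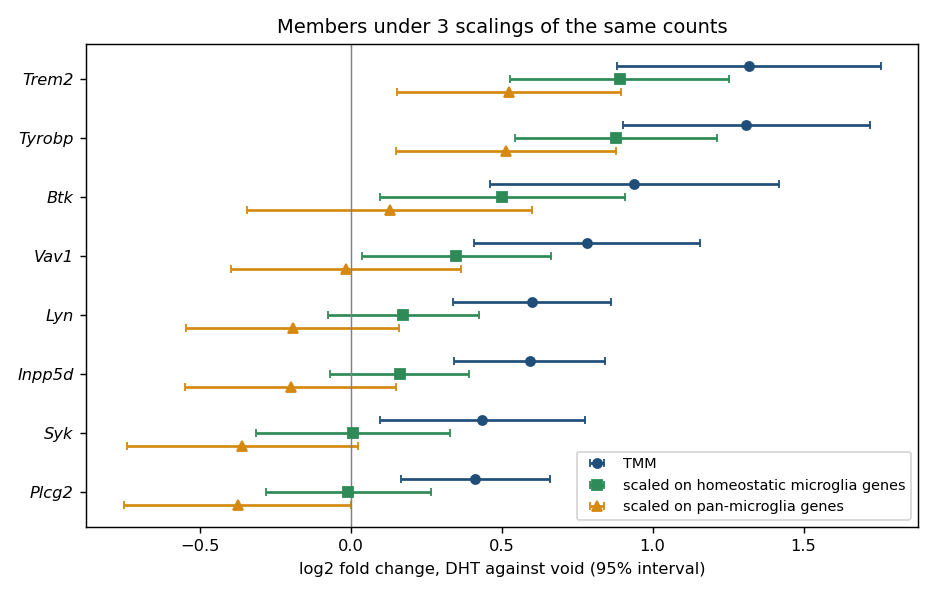
Log2 fold change of DHT against void with its 95% interval for the 8 tested members, from the same counts under TMM normalization (blue circles), scaled on 10 homeostatic microglia genes (green squares) and scaled on 7 pan-microglia genes (orange triangles). Trem2 and Tyrobp keep intervals above 0 under all 3 scalings, whereas under pan-microglia scaling Lyn, Inpp5d, Vav1, Syk and Plcg2 lie at or below 0.

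The level of choroid plexus genes also separated the groups. The covariate used here was the mean log2 CPM of the 12 choroid plexus genes in each mouse. With this covariate, the log2 fold change was 1.20 for Trem2 (SE 0.35) and 1.17 for Tyrobp (SE 0.33), beside 1.32 and 1.31 without it, each with an adjusted p of 0.586 in edgeR's quasi-likelihood test. Lyn was at 0.64, Btk at 0.98 and Inpp5d at 0.58 in this fit, beside 0.60, 0.94 and 0.59 without the covariate, and Syk at 0.45, Vav1 at 0.63 and Plcg2 at 0.25, beside 0.44, 0.78 and 0.41. Under this covariate 0 of the 8 tested members passed, 5 had an unadjusted p under 0.05, and 0 of all 17622 genes passed, with 950 higher and 233 lower at the unadjusted threshold. The standard error of Trem2 was 0.20 without the covariate, and the part of choroid plexus content was not tested beyond this fit.

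Ratios within a mouse compare members in the same library, and 5 were tested with two-sided exact permutation tests of 5 mice against 5, whose smallest p is 0.00794. The log2 ratio of Trem2 to Tyrobp averaged -0.03 ± 0.18 in void mice and -0.03 ± 0.09 in DHT mice (SD, n = 5 each; exact permutation p = 0.976). The 95% interval of the difference ran from -0.23 to 0.21. The ratio of Trem2 to the mean of Lyn, Syk, Btk, Plcg2 and Vav1 was 0.59, 0.89, 0.97, 0.82 and 0.51 in void replicates 4, 5, 9, 10 and 11, and 1.41, 1.07, 1.18, 1.88 and 1.58 in DHT replicates 1, 2, 3, 5 and 6. Every DHT mouse was above every void mouse, and the receptor was higher relative to the signaling genes by 0.67 on the log2 scale (95% interval 0.26 to 1.06, exact permutation p = 0.00794, adjusted p = 0.0198 over the 5 ratios).

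The ratio of Plcg2 to Plcg1, the form of the phospholipase found in most cells, was also higher in every DHT mouse. It ran from -3.86 to -3.40 with void and from -3.32 to -2.84 with DHT, a difference of 0.46 on the log2 scale (exact permutation p = 0.00794, adjusted p = 0.0198). Plcg1 itself averaged 87.1 CPM in void mice and 83.8 in DHT mice, a log2 fold change of -0.06 (adjusted p = 0.656, edgeR's quasi-likelihood test). The ratio of the kinase Syk to the phosphatase Inpp5d differed by -0.16 (95% interval -0.44 to 0.13, exact permutation p = 0.222), less than the spread between mice. The ratio of Tyrobp to Hcst differed by 0.94 (exact permutation p = 0.0317, adjusted p = 0.0529) and did not pass. Summed over mice, there were 73.5 counts of Tyrobp for each count of Hcst with void (95% exact binomial interval 46.9 to 122) and 131 with DHT (91.6 to 194), intervals that overlap and cover counting error only.

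**Figure D3:**
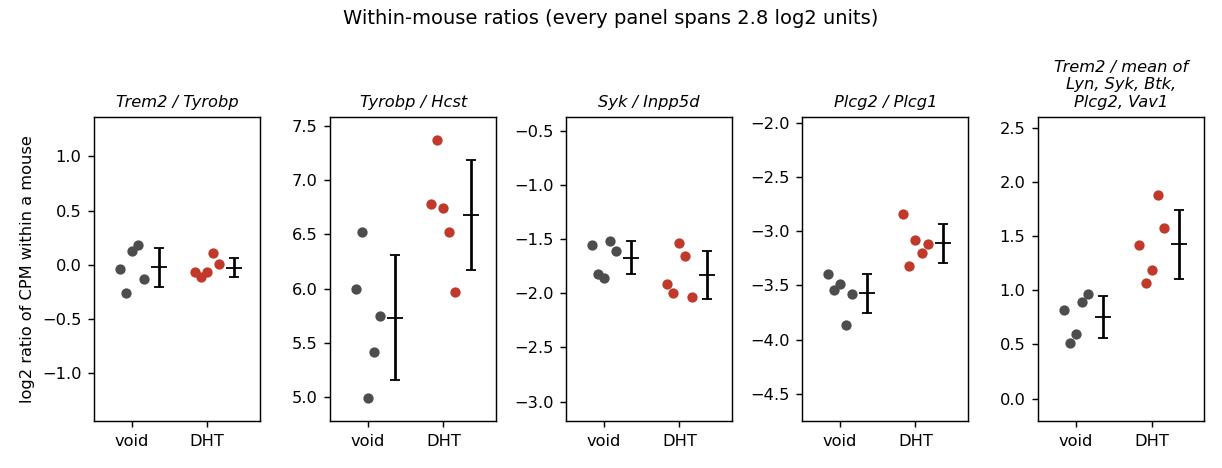
Log2 ratio of CPM within each mouse for 5 pairs of genes or gene groups; points are mice (gray void, red DHT), bars the mean ± SD (n = 5), and every panel spans the same number of log2 units. The groups are apart for Plcg2 to Plcg1 and for Trem2 to the mean of 5 signaling genes, and overlap for the other 3 ratios.

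Across the 10 mice, the genes whose log2 CPM was most like that of Trem2 were Cyba (a subunit of the phagocyte NADPH oxidase), S100a6, Man2b1 (lysosomal alpha-mannosidase), Hvcn1 (a voltage-gated proton channel), Cd68 (a lysosomal protein of macrophages), Lgmn (the lysosomal protease legumain), Tyrobp and Ctsz (cathepsin Z). Their Pearson r ran from 0.992 for Cyba to 0.983 for Ctsz, with Tyrobp in place 7 at 0.984. Because both groups enter, these values hold the difference between groups, and within groups, as deviations from the group means, r was 0.980 for Cyba and 0.925 for Tyrobp. The median r over 17621 genes was 0.0541. Among the other members, Vav1 (0.943) came closest to Trem2 and Btk (0.807) was the least alike. Within groups Syk (0.858) was nearer to Trem2 than Btk (0.318). These are descriptions over mice that differ in depth and in the summed levels of choroid plexus and microglia genes, and the part of these was not tested.

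Beyond the members, 78 other genes of the pathway were listed and 62 could be tested. Of these, 16 rose with DHT, 0 fell and 46 did not pass in edgeR's quasi-likelihood test, against 5.22% of all genes higher and 0.261% lower, and their median log2 fold change was 0.13. At an unadjusted p of 0.05, 28 were higher and 0 lower, against 2316 and 743 of all 17622 genes. DESeq2 gave 20 higher and 0 lower of 77 tested after adjustment, when 3.46% of all genes were higher. Under pan-microglia scaling 37 were lower, when 83.8% of all genes were, and Fgr (2.17) and Ptpn6 (0.40) passed as higher (adjusted p = 0.000139 and 0.0490). Of the neighbors of Trem2 in its receptor cluster 1 of 5 could be tested, Treml2, which did not pass (0.79, adjusted p = 0.227, and -0.05 under pan-microglia scaling), and Trem1 had no count in any mouse. Clec5a, another receptor that pairs with DAP12, rose from 2.35 to 4.55 CPM (log2 fold change 0.96, adjusted p = 0.0348). Fcer1g, the ITAM adaptor of Fc receptors, rose from 4.97 to 9.68 CPM (0.96, adjusted p = 0.00990). Of the 4 apolipoprotein ligands and shedding proteases, Clu, which encodes a lipoprotein ligand of TREM2 made by astrocytes, rose from 605 to 824 CPM (0.45, adjusted p = 0.0194, and -0.33 under pan-microglia scaling). Apoe, Adam10 and Adam17 were at 0.39, -0.02 and 0.34 and did not pass (adjusted p = 0.0802, 0.9502 and 0.138, edgeR's quasi-likelihood test), and in DESeq2 Apoe was at 0.36 with an adjusted p of 0.0435. The summed level of 5 astrocyte genes, of which 1 passed, ranged from 1499 to 1896 CPM with void and from 1922 to 2936 with DHT, and its part in the difference of Clu was not tested. With a mouse left out, Clec5a did not pass in 7 of 10 fits (without void replicate 4, 5, 9 or 11 or DHT replicate 1, 3 or 5), at 0.77 to 1.01 with adjusted p from 0.0560 to 0.108. Clu did not pass in 4 of 10 (without void replicate 4 or 11 or DHT replicate 1 or 5), at 0.37 to 0.40 with adjusted p from 0.0501 to 0.0739.

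Of 8 other Src family kinases and regulators tested, 3 rose, when 5.22% of all genes were higher. Among them were Fgr from 0.211 to 1.65 CPM (log2 fold change 3.003, SE 0.48, adjusted p = 0.00761) and the phosphatase CD45 (Ptprc, 1.25, adjusted p = 0.0251), in edgeR's quasi-likelihood test. Fgr was near the floor with void, at 0.0931 to 0.447 CPM against 0.518 to 2.43 with DHT, so its fold change rests on few void counts. It was not tested when at least 10 counts were required in every library. Of 4 other Syk and Tec family kinases 0 passed by edgeR or DESeq2, with 1 at an unadjusted p under 0.05, and Zap70, the T cell counterpart of Syk, was at 0.20 (adjusted p = 0.676; -0.20 and -0.56 under the scalings on homeostatic and pan-microglia genes). Of 11 scaffolds and ubiquitin ligases 5 rose, with Lat2 (1.26, adjusted p = 0.0117), Dok1 (0.93, adjusted p = 0.0176), Pik3ap1 (0.89, adjusted p = 0.0138) and Blnk (0.67, adjusted p = 0.0337, and -0.13 under pan-microglia scaling) the furthest. With a mouse left out, Blnk did not pass in 7 of 10 fits (without void replicate 4, 5, 9 or 11 or DHT replicate 1, 3 or 6), at 0.52 to 0.69 with adjusted p from 0.0519 to 0.111. Ptprc did not pass in 4 (without void replicate 4 or 11 or DHT replicate 1 or 3), at 1.04 to 1.28 with adjusted p from 0.0614 to 0.0866, Dok1 in 2 (void replicate 11, DHT replicate 1), at 0.77 to 0.93 with adjusted p from 0.0516 to 0.0600, and Pik3ap1 in 1 (void replicate 11), at 0.86 with an adjusted p of 0.0512.

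Among lipid enzymes, 1 of 10 tested rose, Pik3cg, the PI3 kinase catalytic subunit of leukocytes (0.63, adjusted p = 0.0303, edgeR's quasi-likelihood test, and -0.16 under pan-microglia scaling). Of 8 Vav and Rac pathway genes 2 rose, the leukocyte GTPase Rac2 (1.11, adjusted p = 0.00761) and its exchange factor Dock2 (0.95, adjusted p = 0.00761). Ptpn6, which encodes the inhibitory phosphatase SHP-1, rose from 3.89 ± 0.243 to 9.09 ± 2.30 CPM (SD, n = 5 each; log2 fold change 1.22, SE 0.16, adjusted p = 0.00670). Of 11 downstream relays 1 rose, Nfatc1, a calcium-regulated transcription factor (0.48, adjusted p = 0.0307, and -0.30 under pan-microglia scaling). By the same rule 5.22% of all genes were higher, so 1 of 10 or 1 of 11 does not set these lists apart. With a mouse left out, Nfatc1 did not pass in 7 of 10 fits (without void replicate 4, 10 or 11 or DHT replicate 1, 3, 5 or 6), at 0.40 to 0.48 with adjusted p from 0.0579 to 0.111, and neither did Pik3cg in 7 (without void replicate 4, 5, 9 or 11 or DHT replicate 1, 3 or 5), at 0.46 to 0.66 with adjusted p from 0.0508 to 0.107.

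**Figure D4:**
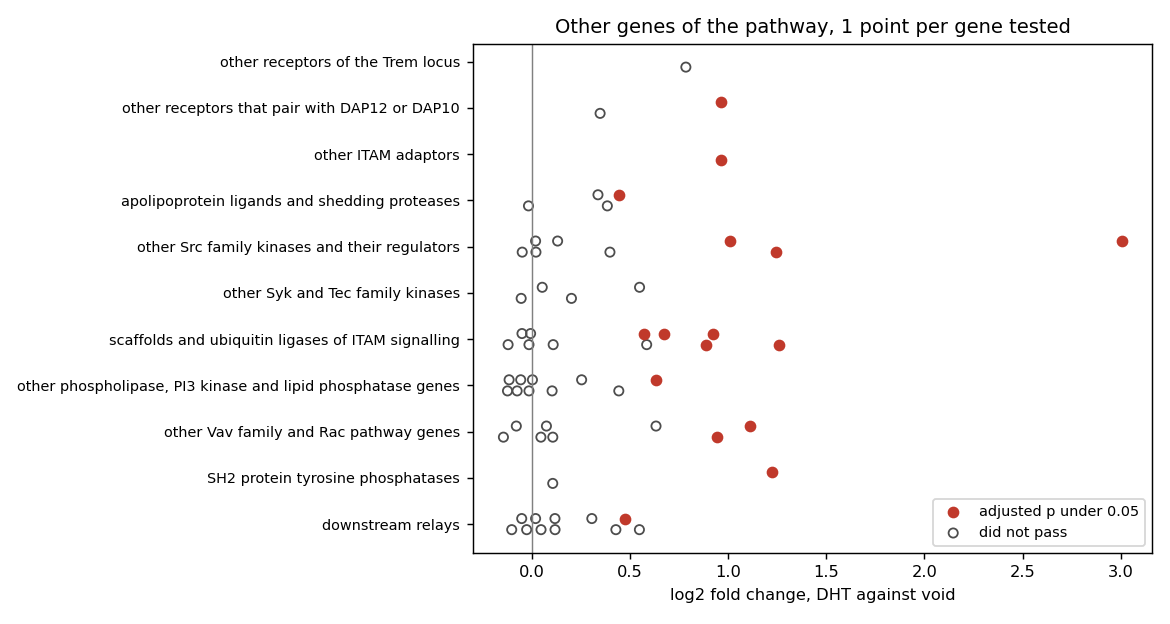
Log2 fold change of DHT against void under TMM normalization for the 62 tested genes of the 11 pathway lists, 1 point per gene, filled red where the adjusted p is under 0.05. The 16 genes that passed lie between 0.45 and 3.003. Of those named in the text, Clu, Blnk, Pik3cg and Nfatc1 take negative values when scaled on pan-microglia genes.

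Markers of other immune cells were low beside those of microglia. Summed levels of T and NK cell genes ranged from 0.664 to 1.27 CPM with void and from 1.077 to 2.12 with DHT, those of monocyte genes from 0.352 to 1.89 and from 0.964 to 1.79, and those of neutrophil genes from 0.155 to 0.701 and from 0.148 to 0.715. With the mean log2 CPM of the 8 T and NK cell genes as a covariate 0 members passed (2 at an unadjusted p under 0.05), as did 0 of all 17622 genes (776 higher and 224 lower at the unadjusted threshold). In this fit Trem2 was at 1.37 (SE 0.34, adjusted p = 0.733, edgeR's quasi-likelihood test) and Tyrobp at 1.25, beside 1.32 and 1.31 without the covariate. Lyn was at 0.38, Syk at 0.24 and Btk at 0.60, beside 0.60, 0.44 and 0.94. Plcg2 was at 0.30, Vav1 at 0.63 and Inpp5d at 0.39, beside 0.41, 0.78 and 0.59. The mast cell genes summed to at most 0.300 CPM in any mouse, with Fcer1a at 0. Genes of border-associated macrophages ranged from 2.33 to 15.0 CPM with void and from 5.09 to 11.6 with DHT, and 0 of 5 tested passed by edgeR, at an adjusted or unadjusted p of 0.05, and 0 by DESeq2. B cell genes summed to between 0.423 and 1.25 CPM with void and between 1.65 and 4.02 with DHT. Of these Cd22, which microglia also express, passed (log2 fold change 2.69, adjusted p = 0.00965), while Ms4a1, a defining gene of B cells, had 0 counts in every DHT mouse. Their part in the members' differences was not tested beyond the T and NK cell fit.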

How the data were processed

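RNA was measured in 1 hippocampal mRNA library per mouse, 5 void and 5 DHT, grouped by the sample titles. The authors deposited raw counts per gene, made by trimming reads with HTStream, aligning them with STAR 2.7.10b and counting. The paper names mm10 and the submitters' processing notes name GRCm39; the counter, annotation and strand setting are not given in the sources used here. Of 56884 identifiers, 51948 had a symbol in GENCODE M21, which was used for names, lengths and neighbors only. RefSeq gave the promoters.

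Counts were fitted in R 4.3.3 with edgeR 4.0.16 (TMM, expression filter by group, quasi-likelihood test, Benjamini-Hochberg adjustment over 17622 genes), as tested on simulated data. CPM are TMM-normalized, and ratios used a prior count of 2. DESeq2 1.42.0, other normalizations, filters, scalings on marker lists, covariates and leaving out each mouse were the alternatives. Members and lists were chosen with earlier results of these data known. Named were all members, up to 4 genes per list that passed (by fold change), the most abundant gene of a list where none passed and the 8 genes most like Trem2. Cd22, Ms4a1, Trem1, Plcg1, Apoe, Adam10 and Adam17 were named beyond that rule, after their values were seen or as list members. Results for some genes under the rule are not reported here. The spread is between separate mice.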

Additional observations from a re-analysis of the deposited data

Results flagged for a closer look

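In 1 of 28 groups examined, a single mouse stood far from the rest of its group. Vav1 was highest in void replicate 10, at 6.12 CPM against 3.98 to 4.56 CPM in the other 4 void mice, so that its gap to the nearest mouse was 0.731 of the range of the group, above Dixon's 95% critical value of 0.71 for 5 mice. Chance alone flags about 1 group in 20, or 1.4 of the 28.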

How the results depend on the processing

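No paired analysis was possible because only the number 5 is used for mice of both groups. The count of 6 members higher became 3 under scaling on homeostatic microglia genes, 2 under scaling on pan-microglia genes, 0 with the choroid plexus covariate and 0 with the T and NK cell covariate, and 2 to 8 with a mouse left out. The 2 members past both the adjusted p and the fold limit became 0 under each of these scalings and covariates, and 2 to 3 with a mouse left out. With the covariates only the adjusted p was lost. Trem2 and Tyrobp stayed past the fold limit, at 1.20 and 1.17 with choroid plexus and 1.37 and 1.25 with T and NK cells. The 5 members without overlap became 2 per homeostatic and 2 per pan-microglia list, and 5 to 8 with a mouse left out. Of other pathway genes, the 16 higher became 2 on pan-microglia genes and 0 with either covariate. With a mouse left out they became 7 (without void replicate 11, when 1.97% of all genes were higher) to 20 (without DHT replicate 2, when 5.76% were). The 0 lower became 25 on homeostatic and 37 on pan-microglia genes (when 56.2% and 83.8% of all genes were lower) and stayed 0 with a mouse left out. The cause was not tested, apart from the shift of all genes that the scalings bring. Among members and named pathway genes, log2 fold changes reversed on pan-microglia genes for Lyn (-0.19), Syk (-0.36), Plcg2 (-0.37), Vav1 (-0.0161), Inpp5d (-0.20), Treml2 (-0.0451), Clu (-0.33), Zap70 (-0.56), Blnk (-0.13), Pik3cg (-0.16) and Nfatc1 (-0.30). They reversed on homeostatic genes for Plcg2 (-0.00878) and Zap70 (-0.20), and with the choroid plexus covariate for Zap70 (-0.22). With group medians, Plcg2 to Plcg1 was 0.42 and Trem2 to the mean of 5 signaling genes 0.60, each with an adjusted p of 0.0794 by exact permutation; the smallest p of a difference of medians is 0.0476, which both had, so complete separation could not pass here. With a mouse left out, those ratios ran from 0.39 to 0.52 and 0.55 to 0.76, Tyrobp to Hcst from 0.76 to 1.14 (past the threshold without void replicate 11, 1.14, and without DHT replicate 6, 1.12), Trem2 to Tyrobp from -0.0612 to 0.0481 and Syk to Inpp5d from -0.23 to -0.11. DESeq2 and library size alone gave 7 members higher, adding Plcg2, when 3.46% and 5.48% of all genes were higher. Added after the data were seen, leaving out void replicate 9 with DHT replicate 2 gave 5 members, with Btk at an adjusted p of 0.0521 by edgeR, and summed counts gave a Tyrobp to Hcst difference of 0.83. Over all alternatives, 120 of 160 values of members kept their direction and side of the threshold. Depth limits Hcst (1 to 9 counts), Btk (34 to 152 counts) and, among other pathway genes, Fgr (0.0931 to 0.447 CPM with void).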
